A study of Mus musculus with 9 samples.

Results

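The Gimap genes (GTPases of immunity-associated proteins) form a mouse family of 8 clustered genes, Gimap1, Gimap3, Gimap4, Gimap5, Gimap6, Gimap7, Gimap8 and Gimap9. They were looked up by symbol in the deposited tables and were 8 of 55488 listed genes. The family was chosen by the TPM of Gimap6, which was among the genes most enriched in the wild type (WT) stem cell gate over c-Kit-positive progenitors, so its stem cell and progenitor levels are given as a description, with no test. RNA was sequenced from sorted fetal liver cells of C57BL/6 mouse embryos at embryonic day 14.5, with 3 libraries in each of 3 groups and 100 cells per library. Evi1 HSC libraries came from embryos carrying Tie2-Cre and ROSA-Evi1, and held GFP+ cells sorted as haematopoietic stem cells (HSC) (CD150+, CD48-, c-Kit+, Sca-1+, Lin-). WT HSC libraries came from ROSA-Evi1 embryos, for which the labels name no Cre, and used the same gate without GFP. WT KL libraries came from the same ROSA-Evi1 genotype and held c-Kit+, Sca-1-, Lin- cells, a gate of committed progenitors. All 3 groups therefore carried the ROSA-Evi1 allele. Tie2-Cre drives recombination in endothelium and blood. Evi1, a transcription factor with zinc fingers, is encoded at Mecom. The labels do not say that replicates came from separate embryos, so a p-value here speaks to library-to-library spread alone, which may be technical.

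2 libraries went against their labels. Mecom was at 176 to 210 TPM (a length-scaled share of all transcripts) in Evi1 HSC, at 161 and 114 TPM in replicates 1 and 2 of WT HSC, and at 0.0107 and 0.325 TPM in replicates 2 and 3 of WT KL. Only 0.0167 TPM was found for the library labelled WT HSC replicate 3, but 90.8 TPM for the library labelled WT KL replicate 1. Ly6a, which encodes the gate antigen Sca-1, was likewise listed at 0 in the first of these and at 19.7 TPM in the second. Across tested genes, Pearson r of the library labelled WT KL replicate 1 averaged 0.955 with replicates 1 and 2 of WT HSC but 0.827 with replicates 2 and 3 of WT KL. No library was moved to another group. Results are given with all 9 libraries as labelled, with the 7 that remain without these 2, or with both. Between 15422 and 18806 genes reached 1 TPM per library, the lowest 3 being the library labelled WT HSC replicate 3 and replicates 2 and 3 of WT KL.

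Gimap proteins share a guanine nucleotide-binding domain of the AIG1 type, sit on intracellular membranes, and are best known for the survival of lymphocytes. Mice without Gimap5 lose T cells, and their blood stem cells lose quiescence. Several members have been tied to proteins of the BCL2 family, which set the threshold for cell death at mitochondria, and Gimap6 to the ATG8 proteins of autophagy.

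The cluster spans 123.6 kb of chromosome 6, from 48647234 to 48770851 in GRCm38 (GENCODE M21), in the order Gimap8, Gimap9, Gimap4, Gimap6, Gimap7, Gimap1, Gimap5 and Gimap3. Gimap6, from 48701582 to 48708225, and Gimap3, from 48764464 to 48770851, lie on the minus strand and the other members on the plus strand. Gimap8 runs from 48647234 to 48660875, Gimap9 from 48676129 to 48679114 and Gimap4 from 48684549 to 48692060. Gimap7 runs from 48718621 to 48724636, Gimap1 from 48739054 to 48743795 and Gimap5 from 48746197 to 48754210. All are annotated as protein-coding. Gimap3 and Gimap5 had the most alike coding sequences, with 90.7% of 895 aligned bases identical, and 7.52% of the distinct stretches of 50 bases in Gimap3 transcripts also occurred in Gimap5. No other pair of members shared a stretch of 50 bases, so by this measure Gimap3 and Gimap5 are the member pair whose reads could have been split. Shorter or inexact matches between transcripts were not searched. Gimap8 had the longest coding sequence, 2064 bases, and its protein is known to carry repeated GTPase domains. Gimap1 shares 1107 of its 3073 exonic bases with the antisense gene Gimap1os, and no source used here says whether counting used strand, so reads of these genes may not be separable. The readthrough gene Gm28053, which spans Gimap7 to Gimap5, shares 81, 198 and 153 exonic bases with Gimap7, Gimap1 and Gimap5.

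The promoter windows of 4 members are printed because these genes mark the range of patterns in the data: Gimap6 had the highest level, Gimap9 kept a level in every progenitor library, and Gimap5 and Gimap3 are the closest pair in coding sequence at unlike levels. Each is the 300 bases of RefSeq's GRCm38.p6 promoter table, 250 before and 50 after the annotated start, written 5′ to 3′ on the gene's strand, and capitals mark the ETS factor motif GGAAGT on either strand. The windows are chr6:48708195-48708494 (minus strand) for Gimap6, chr6:48675885-48676184 (plus strand) for Gimap9, chr6:48745947-48746246 (plus strand) for Gimap5 and chr6:48770802-48771101 (minus strand) for Gimap3.
Gimap6: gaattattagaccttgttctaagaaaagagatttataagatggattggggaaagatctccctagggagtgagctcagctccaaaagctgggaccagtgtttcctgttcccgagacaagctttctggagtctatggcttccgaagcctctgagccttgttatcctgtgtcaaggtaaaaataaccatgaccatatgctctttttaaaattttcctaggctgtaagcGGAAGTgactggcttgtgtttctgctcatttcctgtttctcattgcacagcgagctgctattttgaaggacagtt
Gimap9: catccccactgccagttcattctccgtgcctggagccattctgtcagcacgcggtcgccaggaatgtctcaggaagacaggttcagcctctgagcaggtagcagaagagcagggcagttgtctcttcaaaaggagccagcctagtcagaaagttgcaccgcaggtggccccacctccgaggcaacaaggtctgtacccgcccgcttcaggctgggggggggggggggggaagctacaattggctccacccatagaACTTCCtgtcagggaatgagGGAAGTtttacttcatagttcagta
Gimap5: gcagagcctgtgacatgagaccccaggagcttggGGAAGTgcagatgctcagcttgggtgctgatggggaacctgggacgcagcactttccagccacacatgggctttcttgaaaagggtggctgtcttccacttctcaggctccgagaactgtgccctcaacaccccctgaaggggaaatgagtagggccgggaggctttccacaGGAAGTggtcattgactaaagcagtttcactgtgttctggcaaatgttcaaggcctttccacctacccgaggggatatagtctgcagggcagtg
Gimap3: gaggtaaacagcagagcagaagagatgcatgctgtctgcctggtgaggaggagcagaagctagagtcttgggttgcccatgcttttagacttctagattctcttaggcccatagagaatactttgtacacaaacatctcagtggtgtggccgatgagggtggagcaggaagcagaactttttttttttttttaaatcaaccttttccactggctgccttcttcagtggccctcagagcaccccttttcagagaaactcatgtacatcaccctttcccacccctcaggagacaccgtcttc

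The table held 9 windows for the 8 members, with a pair for Gimap8. On either strand, GGAAGT occurred in windows of 4 members, Gimap1, Gimap5, Gimap6 and Gimap9, and in 23.8% of all 32851 windows of that length. In Gimap6 it began 25 bases before the start, and in Gimap5 216 and 44 bases before it. In Gimap9 matches began 6 and 26 bases into the transcript. The RUNX motif TGTGGT occurred in 3 members, Gimap1, Gimap4 and Gimap7, and in 16.8% of all windows. The GATA motif AGATAA occurred in 0 members and in 11.2% of all windows. The motif of Evi1's carboxy-terminal fingers, GAAGATGAG, occurred in 0 members and in 0.399% of all windows, and the interferon-stimulated response element in 0 members and in 3.44%. The searched motifs do not overlap in these windows, and the letters say only what each window holds.

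Every member was higher in the 3 Evi1 HSC libraries, and in replicates 1 and 2 of WT HSC, than in replicates 2 and 3 of WT KL. Gimap6, which binds the ATG8 protein GABARAPL2, was at 161, 191 and 205 TPM in Evi1 HSC libraries. Libraries labelled WT HSC 1 to 3 had 193, 189 and 1.08 TPM. Those labelled WT KL 1 to 3 had 155, 1.13 and 1.10 TPM. The 9 libraries thus fell into 6 at 155 TPM or above and 3 between 1.08 and 1.13 TPM, and within each labelled WT group 1 library crossed over. Gimap6 ranked between 234th and 315th among all listed genes in the 6 high libraries.

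Gimap5, needed for the survival of T cells and the quiescence of stem cells, was at 32.1, 31.3 and 29.1 TPM in Evi1 HSC. It was at 38.1, 29.1 and 0.304 TPM in libraries labelled WT HSC 1 to 3 and at 30.6, 0.150 and 0 TPM in those labelled WT KL 1 to 3. Its Evi1 HSC libraries were the closest together of any member, with a coefficient of variation of 5.09% (n = 3). Gimap3, its closest relative, was at 3.76, 6.20 and 5.07 TPM in Evi1 HSC. It was at 3.94, 5.01 and 0 TPM in libraries labelled WT HSC and at 5.20, 0 and 0 TPM in those labelled WT KL. In each of the 6 libraries that held both, Gimap5 was therefore several times the level of Gimap3.

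Gimap1, which mature T and B cells need, was at 72.0, 85.5 and 90.8 TPM in Evi1 HSC. It was at 63.2, 69.5 and 2.20 TPM in libraries labelled WT HSC and at 78.3, 1.09 and 1.55 TPM in those labelled WT KL. The antisense Gimap1os, whose exons overlap those of Gimap1, was at 22.9, 13.3 and 25.4 TPM across Evi1 HSC libraries and at 15.8, 20.7 and 0.271 TPM in libraries labelled WT HSC. In those labelled WT KL it was at 16.7, 0.154 and 0.165 TPM, so it was high and low in the same libraries as Gimap1. Among the high libraries the order differed. Evi1 HSC replicate 2 had the least Gimap1os, 13.3 TPM, with 85.5 TPM of Gimap1.

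Gimap8, tied to B cell survival in mice, was at 51.2, 39.2 and 48.3 TPM in Evi1 HSC. It was at 38.8, 50.7 and 0.201 TPM in libraries labelled WT HSC and at 45.7, 0 and 0.0501 TPM in those labelled WT KL. Gimap4, which promotes the death of T cells once death has been triggered, was at 15.3, 13.9 and 10.4 TPM in Evi1 HSC. It was at 6.94, 11.6 and 0.178 TPM in libraries labelled WT HSC and at 7.37, 0.0969 and 0 TPM in those labelled WT KL. Gimap4 thus spread more between stem cell libraries than Gimap5 or Gimap9, and the Evi1 HSC and WT HSC ranges overlapped. Gimap7, whose human counterpart speeds GTP hydrolysis by another family member, was at 3.57, 3.12 and 6.83 TPM in Evi1 HSC. It was at 1.46, 3.29 and 0 TPM in libraries labelled WT HSC and at 3.05, 0 and 0 TPM in those labelled WT KL. Gimap7 had the widest relative spread in Evi1 HSC, with a coefficient of variation of 44.9% (n = 3).

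Gimap9 was the member that stayed on in the low libraries. It was at 24.1, 23.5 and 20.9 TPM in Evi1 HSC. It was at 19.6, 19.9 and 5.55 TPM in libraries labelled WT HSC and at 21.0, 4.88 and 3.95 TPM in those labelled WT KL. In replicates 2 and 3 of WT KL its mean of 4.42 ± 0.66 TPM (SD, n = 2) exceeded those of Gimap1 (1.32 ± 0.33) and Gimap6 (1.11 ± 0.02), and the other 5 members were at 0.150 TPM at most in both.

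**Figure D1:**
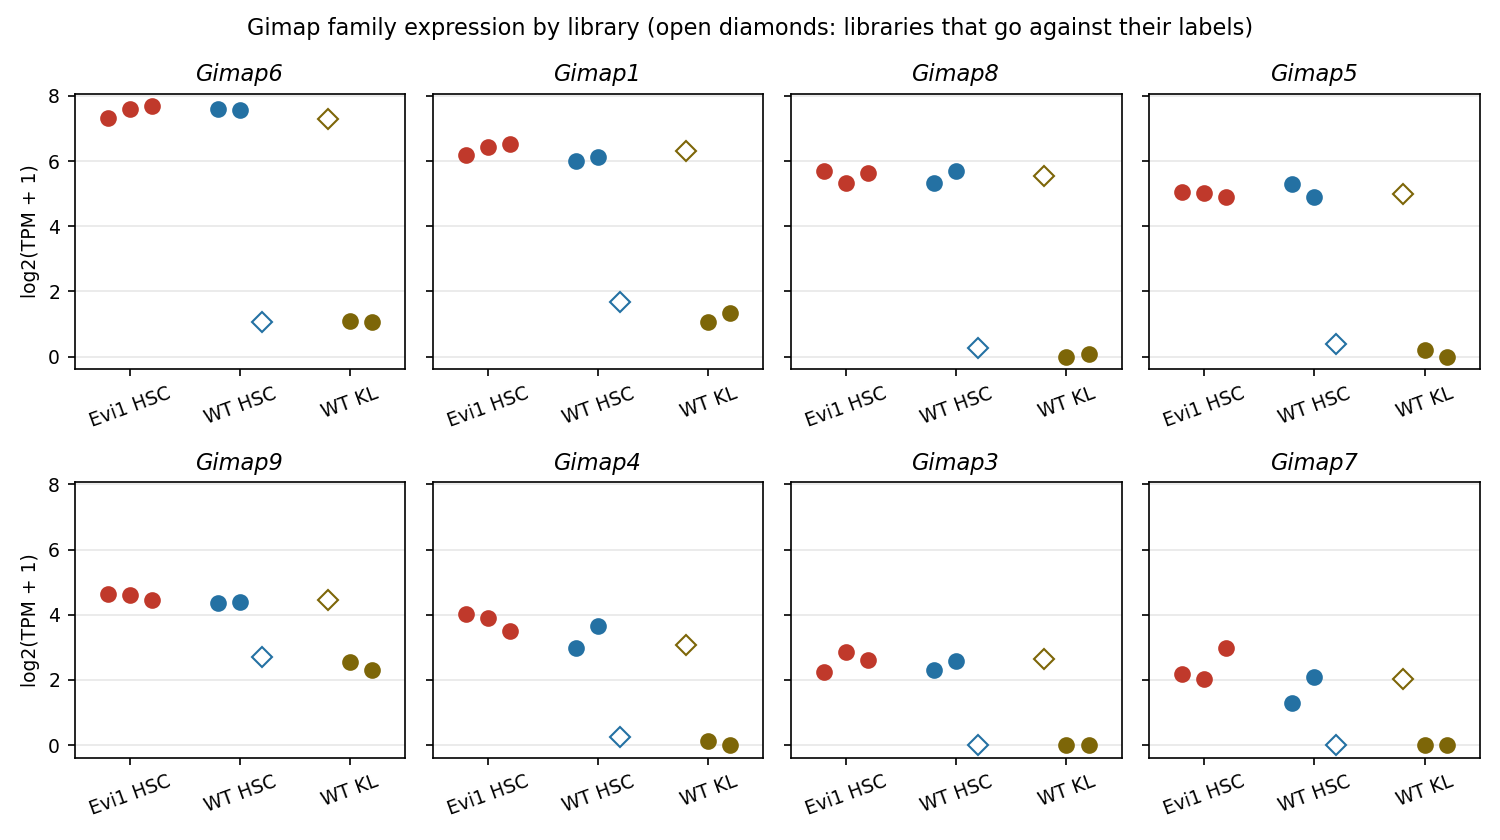
Each panel plots 1 member as log2(TPM + 1) in every library, grouped by label, with 1 point per library in replicate order and open diamonds for the libraries labelled WT HSC replicate 3 and WT KL replicate 1. In every panel the 3 Evi1 HSC and 2 filled WT HSC points lie above the 2 filled WT KL points. Gimap9 keeps 3.95 and 4.88 TPM in those 2 WT KL libraries.

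In Evi1 HSC the order of mean levels was Gimap6 (186 ± 23 TPM), Gimap1 (82.8 ± 9.7), Gimap8 (46.2 ± 6.3), Gimap5 (30.9 ± 1.6), Gimap9 (22.9 ± 1.7), Gimap4 (13.2 ± 2.6), Gimap3 (5.01 ± 1.22) and Gimap7 (4.50 ± 2.02), each SD over n = 3. Neighbours in that order did not overlap, except Gimap3 and Gimap7. Replicates 1 and 2 of WT HSC held the same order, and there no neighbours overlapped. In replicates 2 and 3 of WT KL Gimap9 came first and Gimap1 second. There Gimap6 overlapped Gimap1, and Gimap8, Gimap5, Gimap4, Gimap3 and Gimap7 lay at or near 0.

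The summed level of the 8 members was 363, 394 and 417 TPM across Evi1 HSC libraries and 365 and 379 TPM in replicates 1 and 2 of WT HSC, against 7.35 and 6.65 TPM in replicates 2 and 3 of WT KL. The libraries labelled WT HSC replicate 3 and WT KL replicate 1 summed to 9.52 and 347 TPM. Gimap6 made up 44.3 to 49.3% of the sum in Evi1 HSC and 52.9 and 50.02% in replicates 1 and 2 of WT HSC, but 15.3 and 16.5% in replicates 2 and 3 of WT KL. Gimap9 made up 5.02 to 6.66% in Evi1 HSC and 5.38 and 5.27% in replicates 1 and 2 of WT HSC, but 66.5 and 59.4% in replicates 2 and 3 of WT KL. In the libraries that went against their labels, Gimap9 held 58.3% (WT HSC replicate 3) and 6.06% (WT KL replicate 1). In bulk libraries, fewer cells that express a gene and less RNA per cell cannot be told apart.

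Set against replicates 2 and 3 of WT KL, replicates 1 and 2 of WT HSC had a 172-fold higher mean of Gimap6, a 50.2-fold higher mean of Gimap1 and a 4.48-fold higher mean of Gimap9. Evi1 HSC libraries had means 167-fold, 62.7-fold and 5.17-fold higher for Gimap6, Gimap1 and Gimap9 against those same WT KL libraries, which both comparisons share. Gimap3 and Gimap7 were listed at 0 in both of these WT KL libraries, and Gimap4, Gimap5 and Gimap8 in 1 of them each, so no fold is given. On the log2(TPM + 1) scale, where changes of low genes are understated, the median difference over the 8 members was 4.06 for WT HSC minus WT KL, against 0.26 over all tested genes. For Evi1 HSC minus WT KL it was 4.32, against 0.28. All 8 members lay higher without overlap in the WT HSC over WT KL comparison of 7 libraries, where 47.4% of tested genes did, and in the Evi1 HSC over WT KL comparison, where 43.6% did. Since the family was chosen for this contrast, nothing is read from these counts.

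With all 9 libraries as labelled, the median differences were 1.46 for WT HSC minus WT KL and 3.01 for Evi1 HSC minus WT KL. In the 9 libraries 0 members separated WT HSC from WT KL without overlap, where 1.42% of tested genes lay higher in every WT HSC library. Evi1 HSC lay above WT KL without overlap for 3 of 8, Gimap4, Gimap6 and Gimap7, against 13.5% of tested genes. Every member crossed over in the same 2 libraries. For the library labelled WT KL replicate 1, 7 of the 8 members lay inside the range of the 3 Evi1 HSC libraries and replicates 1 and 2 of WT HSC, and Gimap6, at 155 TPM, lay just under its lowest value of 161 TPM. All 8 lay below that range for the library labelled WT HSC replicate 3.

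Setting Evi1 HSC against WT HSC asks whether stem cells with ectopic Evi1 differ from stem cells of the same surface gate, and it was not the contrast by which the family was chosen, although Gimap6's level in WT HSC was part of that choice. No Gimap member was called in either direction. With limma over 19461 tested genes and 9 libraries as labelled, 0 of 8 members passed an adjusted p of 0.05, where 0.00514% of tested genes did, and 0 had an unadjusted p under 0.05, where 4.66% did. The 1 gene called in that fit was Egfp (log2 fold change 4.48, adjusted p = 0.000652, limma), which encodes the GFP by which Evi1 HSC cells were sorted. The Gimap6 fold change was 2.13 (SE 2.07, adjusted p = 0.791) on the log2 scale, and its 95% interval ran from −2.59 to 6.84. All 8 fold changes were above 0 in this fit, with a median of 1.49 and adjusted p of 0.791 or 0.792, while the library labelled WT HSC replicate 3 held near-progenitor levels of each.

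With 7 libraries, 0 of 8 members were called with limma, where 0.206% of tested genes were, and 0 had an unadjusted p under 0.05, where 8.4% did. The intervals of Gimap6, Gimap1, Gimap8 and Gimap5, the members with the highest means, were narrower than with 9 libraries. The Gimap6 fold change was −0.05 (SE 0.13, adjusted p = 0.964), with a 95% interval from −0.37 to 0.27. The Gimap8 fold change was 0.05 (SE 0.18, adjusted p = 0.974), from −0.39 to 0.49. Gimap5 was at −0.11 (SE 0.17, adjusted p = 0.925), from −0.52 to 0.30. For Gimap1 the fold change was 0.31 (SE 0.16, adjusted p = 0.673), from −0.07 to 0.69. A change of 1 log2 unit lay outside these intervals, whereas smaller differences within the printed limits were not excluded.

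Gimap1 and Gimap9 were the members whose Evi1 HSC libraries all lay above replicates 1 and 2 of WT HSC. Such a separation was found in 2 of 8 members, against 11.8% of tested genes, and with 9 libraries in the same 2, against 9.19%. Gimap1 averaged 82.8 ± 9.7 TPM in Evi1 HSC (SD, n = 3) and 66.4 ± 4.5 TPM in replicates 1 and 2 of WT HSC (SD, n = 2), a log2 fold change of 0.31 (SE 0.16, adjusted p = 0.673, limma). Gimap9 averaged 22.9 ± 1.7 TPM and 19.8 ± 0.2 TPM in these groups, a log2 fold change of 0.20 (SE 0.15, adjusted p = 0.798, limma). The library labelled WT KL replicate 1, a WT library, held 78.3 TPM of Gimap1 and 21.0 TPM of Gimap9, both inside the Evi1 HSC range. With 7 libraries the largest fold change was that of Gimap7, at 0.70 (SE 0.36, adjusted p = 0.673, limma), with a 95% interval from −0.14 to 1.55, followed by Gimap4 at 0.49 (SE 0.26, adjusted p = 0.687). Gimap3 was at 0.12 (SE 0.23, adjusted p = 0.941). The median over the 8 members was 0.16, against 0.00 over all tested genes.

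**Figure D2:**
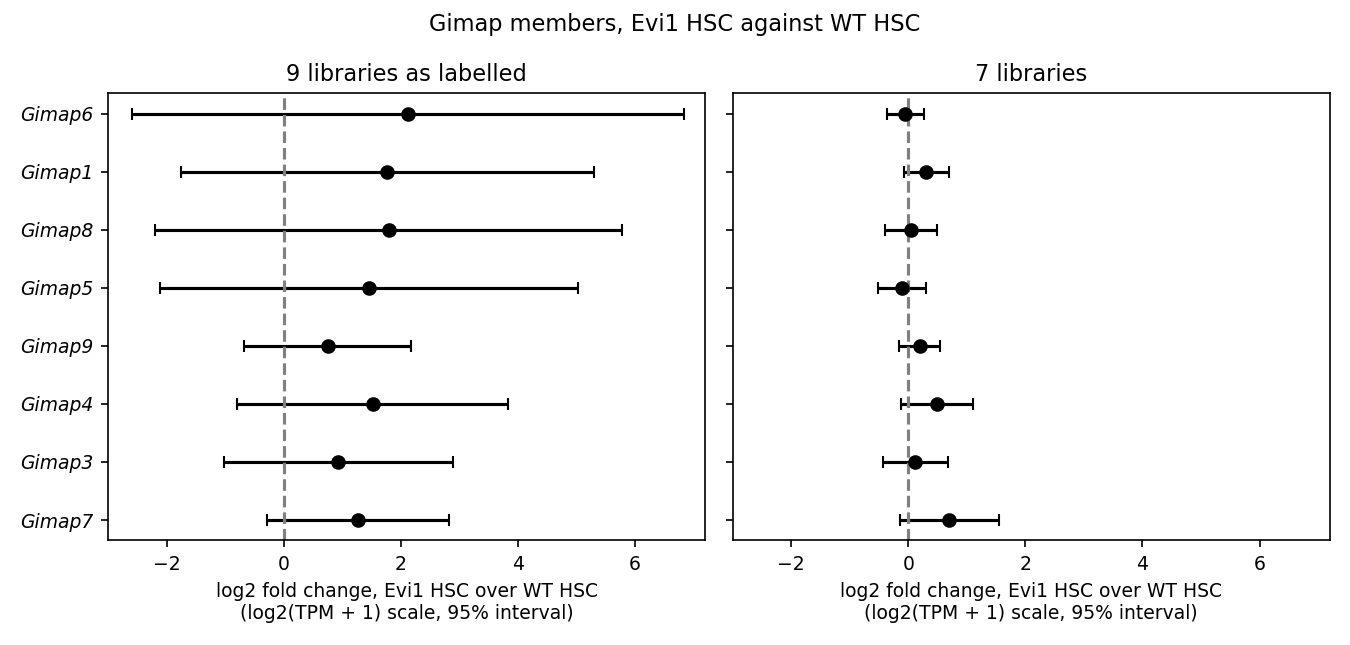
Points give the log2 fold change of each member in Evi1 HSC over WT HSC on the log2(TPM + 1) scale and bars its 95% interval from limma, with 9 libraries as labelled on the left and 7 libraries on the right. Every interval spans 0 in both fits, and that of Gimap6 narrows to between −0.37 and 0.27 with 7 libraries.

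The neighbours of the cluster were examined in a window of 200 kb on each side. Of 32 other annotated genes there, 19 reached 1 TPM in a library, of which 4 lay inside the cluster, 12 upstream of Gimap8 and 3 at higher coordinates than Gimap3. All 4 inside, Gm28053, Gimap1os, Gm44226 and 4833403J16Rik, were high and low in the same libraries as the members. The last of these, a long non-coding RNA beside Gimap5, was at 14.3, 10.9 and 12.1 TPM across Evi1 HSC libraries and at 10.97, 10.7 and 0.264 TPM in libraries labelled WT HSC. In those labelled WT KL it was at 12.8, 0.0738 and 0.0887 TPM.

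Beyond the cluster the pattern was mixed. Tmem176b and Tmem176a, paired membrane protein genes whose ends overlap, lie 63.0 and 70.1 kb from Gimap3 at higher coordinates. They had log2 differences of 4.44 and 4.80 in replicates 1 and 2 of WT HSC minus replicates 2 and 3 of WT KL. Tmem176b was at 109, 82.9 and 62.9 TPM in Evi1 HSC, at 51.2, 64.8 and 2.99 TPM in libraries labelled WT HSC, and at 99.6, 1.64 and 1.76 TPM in those labelled WT KL. Upstream, Repin1, a zinc finger gene 48.2 kb away, differed by 1.95, and the predicted genes Gm5111 and Gm45021 differed by 3.37 and 3.14. Zfp775, a zinc finger gene between Repin1 and Gimap8, differed by −0.32, with 0.916 to 1.20 TPM in Evi1 HSC, 0.988 and 1.37 TPM in replicates 1 and 2 of WT HSC, and 1.73 and 1.70 TPM in replicates 2 and 3 of WT KL. Of the 12 upstream genes, 9 were above 0 in this difference, with a highest value of 3.37 for Gm5111, and no test was made in this contrast. Over all tested genes the median of this difference was 0.26, and 47.4% lay higher without overlap. The share of tested genes above 0 was not computed, so nothing is read from this count. In Evi1 HSC against WT HSC, 0 of the 17 neighbours that passed the filter were called with limma, with 9 or with 7 libraries, and 0 had an unadjusted p under 0.05.

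**Figure D3:**
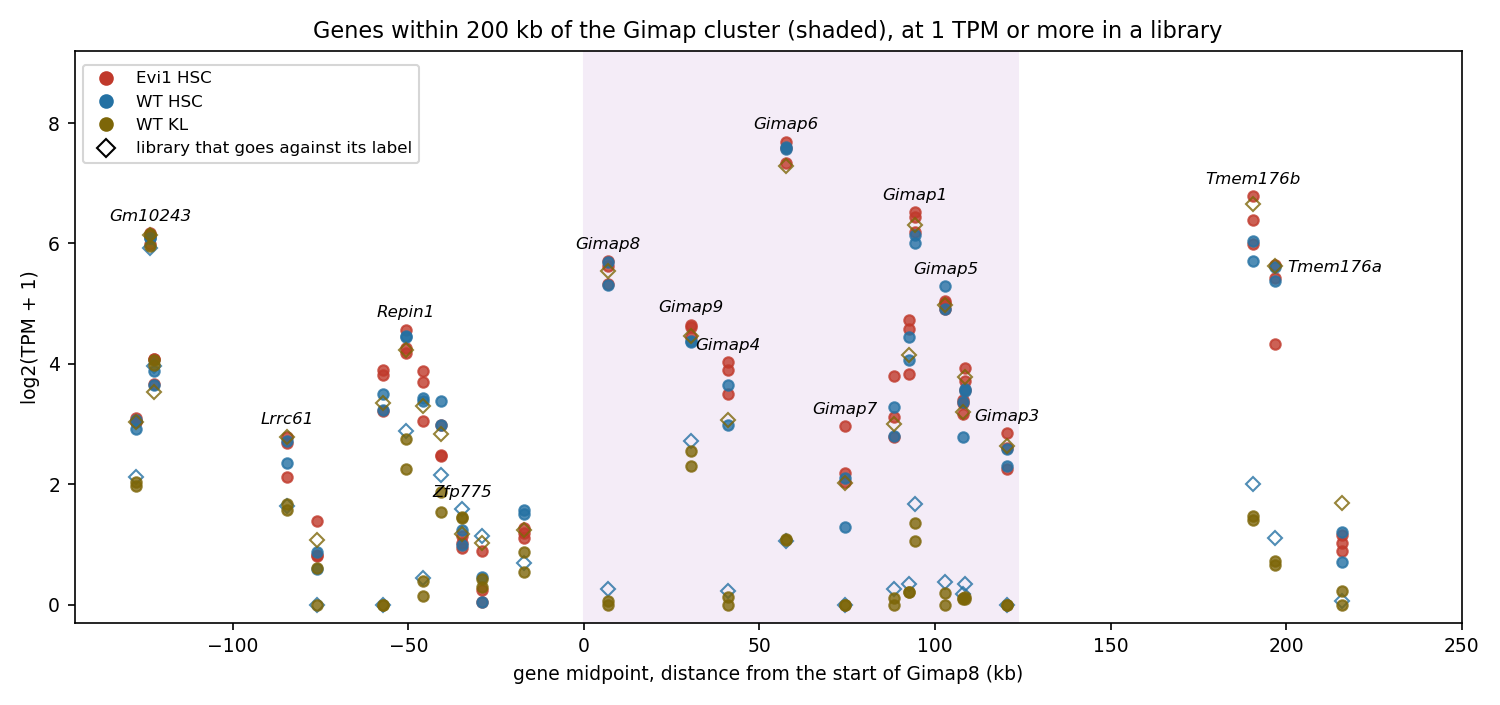
Each point is a gene in 1 library, placed by the distance of the gene's midpoint from the start of Gimap8 in kb and by its level as log2(TPM + 1), with the Gimap cluster shaded and open diamonds for the libraries that went against their labels. Inside the cluster, replicates 2 and 3 of WT KL lie at 1.55 TPM or below for all genes but Gimap9, while Zfp775, left of the cluster, does not separate in that way and Tmem176b, right of it, does.

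Across the 9 libraries, members correlated with each other in log2(TPM + 1) with Pearson r between 0.913 (Gimap5 with Gimap7) and 0.997 (Gimap5 with Gimap6) over 28 pairs. These values describe the same high and low libraries and carry no p. Among 7425 candidates with a group mean of at least 10 TPM, the genes most like Gimap6 included Nkx2-3, a homeobox transcription factor (r = 0.999), and Gcnt2, a glycosyltransferase (r = 0.999). Neurl3, an E3 ubiquitin ligase, and Fgd5, a guanine nucleotide exchange factor and a marker of stem cells, also had r = 0.999. Of the members, Gimap5 ranked 18th, Gimap8 31st, Gimap1 62nd, Gimap9 261st and Gimap4 488th. Gimap3 and Gimap7 had no group mean of 10 TPM and were not ranked, with r of 0.991 and 0.931.

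Genes of the proteins that Gimap members are known to bind or act with were measured in the same fits. Of 6 BCL2 family genes, 0 were called in Evi1 HSC against WT HSC with limma, with 9 or with 7 libraries. Bcl2, which opposes cell death, was at 11.6, 11.4 and 8.49 TPM across Evi1 HSC libraries and at 8.10 and 6.62 TPM in replicates 1 and 2 of WT HSC, a log2 fold change of 0.45 (SE 0.19, adjusted p = 0.601) with 7 libraries. With 9 libraries as labelled the Bcl2 fold change was 0.94 (SE 0.56, adjusted p = 0.791, limma). The library labelled WT HSC replicate 3 had 2.01 TPM of Bcl2 and those labelled WT KL had 9.97, 2.27 and 2.30 TPM. Set by library, 3 of the 6 BCL2 family genes (Bcl2, Bcl2l1 and Mcl1) were higher in all 6 libraries with high Gimap levels than in the 3 with low levels. The death-promoting Bax and Bcl2l11 were lower in all 6, at 34.2 to 44.5 TPM against 55.7 to 57.0 TPM for Bax and 1.58 to 3.82 TPM against 6.14 to 8.43 TPM for Bcl2l11, and Bak1 overlapped. Bax, Bcl2l11, Mcl1 and Bak1 were singled out after their values were seen. The split was set by the Gimap levels, and no share over all tested genes was computed for it. In the closest comparisons, with 7 libraries, 47.4% of tested genes lay higher without overlap in WT HSC over WT KL. For Evi1 HSC over WT KL it was 43.6%, so nothing is read from these counts. With 7 libraries, as for Gabarapl2 and Gsk3b below, Bcl2l1, a relative that also opposes death, had a log2 fold change of 0.17 (SE 0.14, adjusted p = 0.817). Of 5 ATG8 family genes 0 were called, and Gabarapl2 was at 8.78, 9.04 and 7.43 TPM across Evi1 HSC libraries and 6.64 and 6.72 TPM in replicates 1 and 2 of WT HSC (log2 fold change 0.29, SE 0.18, adjusted p = 0.732). Of the 3 genes for GSK3 kinases and beta-catenin 0 were called, with Gsk3b at −0.07 (SE 0.17, adjusted p = 0.958). In these 3 lists 0 genes had an unadjusted p under 0.05 with 9 or with 7 libraries. Their 7-library medians were 0.13, 0.07 and 0.09, against 0.00 over all tested genes.

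Other inducible GTPase genes, of the Gbp, Irg and Mx families, were set beside the Gimap genes. Of 14 listed, 13 passed the filter and 0 were called in Evi1 HSC against WT HSC with limma, while 3 had an unadjusted p under 0.05 with 9 libraries, where 4.66% of tested genes did, and 4 with 7, where 8.4% did. With 7 libraries all 13 had a fold change above 0, with a median of 0.82 and a smallest adjusted p of 0.140, where the Gimap median was 0.16. Their summed level was 123 to 232 TPM across Evi1 HSC libraries and 99.9 and 114 TPM in replicates 1 and 2 of WT HSC, against 18.4 and 17.5 TPM in replicates 2 and 3 of WT KL. It was 16.6 and 117 TPM for the libraries labelled WT HSC replicate 3 and WT KL replicate 1. Gbp7, with the highest mean, was at 53.9, 57.7 and 34.4 TPM across Evi1 HSC libraries and at 41.5 and 41.5 TPM in replicates 1 and 2 of WT HSC. Irgm1 was at 34.6, 52.9 and 29.6 TPM across Evi1 HSC libraries and at 23.4 and 27.6 TPM in replicates 1 and 2 of WT HSC. A difference between the 2 GTPase groups was not tested.

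Markers of cells known to express Gimap genes were measured beside them, and single markers named here were picked after their values were seen. Gimap levels were high in 6 libraries (Evi1 HSC, replicates 1 and 2 of WT HSC and the one labelled WT KL replicate 1) and low in 3. No share over all tested genes was computed for this split. In the 7-library comparisons with WT KL, 47.4 and 43.6% of tested genes lay higher without overlap in WT HSC and in Evi1 HSC. Of 11 T and NK cell markers, Cd2, Cd3e and Ncr1 were listed at 0 in all 9 libraries and 7 stayed under 1 TPM in all. Of the 4 others, Lck, Cd4 and Klrb1c were higher in all 6 high libraries than in the 3 low ones, and Nkg7 was lower. Lck, a kinase of T cell receptor signalling, was at 3.84 to 9.06 TPM in the high libraries and at 0.249 to 0.518 TPM in the low ones. Cd4 was at 1.60 to 1.96 TPM against 0.0415 to 0.0996 TPM, and Klrb1c at 2.11 to 6.37 TPM and listed at 0 in the low libraries. The summed level was 12.6 to 15.3 TPM across Evi1 HSC libraries and 8.73 and 11.9 TPM in replicates 1 and 2 of WT HSC, against 36.7 and 9.41 TPM in replicates 2 and 3 of WT KL. In the libraries labelled WT HSC replicate 3 and WT KL replicate 1 it was 21.1 and 17.3 TPM. Nkg7, a gene of cytotoxic granules, supplied 20.6, 36.0 and 8.98 TPM of the 21.1, 36.7 and 9.41 TPM in the low libraries.

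Of 8 B cell markers, Pax5 and Ms4a1 stayed under 1 TPM in all libraries. Cd79b, a B cell receptor subunit and the 1 marker of the list that passed the filter, was at 15.95 to 25.0 TPM in the high libraries and at 1.79 to 5.11 TPM in the low ones. The other 5 at 1 TPM or more in a library overlapped between high and low libraries. The sum was 23.8 to 25.4 TPM across Evi1 HSC libraries and 17.0 and 21.0 TPM in replicates 1 and 2 of WT HSC, against 9.84 and 2.14 TPM in replicates 2 and 3 of WT KL. It was 20.6 TPM for the library labelled WT HSC replicate 3, of which the pro-B cell gene Igll1 supplied 8.72 TPM, and 19.5 TPM for the one labelled WT KL replicate 1. Of 5 early lymphoid genes, Il7r, Rag2 and Dntt stayed under 1 TPM in all libraries. Flt3, a receptor of multipotent and lymphoid progenitors, was at 7.95 to 16.0 TPM in the high libraries and at 0.610 to 0.698 TPM in the low ones, while Rag1 overlapped. The part of lymphoid cells in the Gimap levels was not tested.

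Of the 12 endothelial markers, 11 were higher in all 6 high libraries than in the 3 low ones, and Plvap overlapped, at 1.61 to 4.49 TPM against 1.72 to 3.49 TPM. Lyve1 and Stab2, markers of sinusoidal endothelium, were at 0.393 and 0.175 TPM in WT HSC replicate 1. In the low libraries they were at most at 0.0373 and 0.0388 TPM. Other markers of the list were high in WT HSC replicate 1, such as Egfl7 at 346 TPM, Tie1 at 59.1 TPM and Tek at 37.7 TPM. All 12 passed the filter, and their summed level was 471 to 910 TPM across Evi1 HSC libraries and 520 and 400 TPM in replicates 1 and 2 of WT HSC, against 32.4 and 33.0 TPM in replicates 2 and 3 of WT KL. Sums of 45.5 and 372 TPM were found for the libraries labelled WT HSC replicate 3 and WT KL replicate 1. In Evi1 HSC against WT HSC 0 of the 12 were called with limma, with 9 or with 7 libraries, and 4 and 3 had an unadjusted p under 0.05, where 4.66 and 8.4% of tested genes did. Some of these genes, such as Tek and Pecam1, are also used by stem cells, and their part in the Gimap levels was not tested. Egfl7 alone supplied 610 of the 910 TPM in Evi1 HSC replicate 3, against 235 and 236 TPM in Evi1 HSC replicates 1 and 2. Of the 10 stem cell markers all were measured, and their sum was 763 to 901 TPM across Evi1 HSC libraries and 784 and 795 TPM in replicates 1 and 2 of WT HSC, against 11.8 and 12.0 TPM in replicates 2 and 3 of WT KL. It was 9.85 and 737 TPM for the libraries labelled WT HSC replicate 3 and WT KL replicate 1. All 10 were higher in all 6 high libraries than in the 3 low ones. So were all 14 other inducible GTPase genes and all 5 ATG8 genes. The other way, 7 of 8 granulocyte and monocyte and 5 of 7 erythroid genes were lower in all 6. Of the rest, Prtn3 and Hba-a1 overlapped and the erythroid Hbb-bt was higher in all 6. No share of tested genes lying lower was computed, so nothing is read from these counts.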

How the data were processed

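RNA-seq was measured in 9 libraries of 100 sorted cells, 3 per group. The authors deposited TPM per gene, 1 library per file, and per the file headers 1 value column (WT HSC replicate 2) is headed C_H3. That column summed to 56.9% of the TPM scale, against 57.1 to 63.8% for the others, and was used as TPM. Per the submitters' processing notes the tools include HISAT2 and StringTie and the build is mm10, with roles, versions, annotation and strand not given in the sources used here for these files. TPM keeps no depth, so the depth is unknown and no counting interval is given, and a 0 means listed at 0. Because TPM is a share, a few abundant genes that rise lower all others.

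Tests ran on log2(TPM + 1) in limma 3.58.1 under R 4.3.3 (group means, moderated variance with a trend, Benjamini-Hochberg). The filter, 1 TPM in 3 or more of the 9 libraries, kept 19461 of 55488 genes. All 8 members passed, through the libraries in which they were high. The threshold for a call was an adjusted p of 0.05. The fit was tested on simulated data drawn with the spread within groups of the 7 libraries, not the wider spread of the 9 as labelled. Alternatives left out the 2 libraries that went against their labels or each library in turn, added a replicate block, changed the pseudocount to 0.1, dropped the filter, fitted the compared groups alone, and rescaled the listed genes to a common total. Coding sequences and transcripts were compared with Biopython 1.88. The named genes were the 8 members, the 5 genes most correlated with Gimap6 (1 of them is not reported here), neighbours within 200 kb, listed partners (Bcl2, Bcl2l1, Gabarapl2, Gsk3b and any called) and the 2 highest of the other GTPases. The members, lists and rules were chosen with earlier results of these data known. Granulocyte and monocyte, erythroid, macrophage and hepatocyte lists were also looked up: in Evi1 HSC against WT HSC, 0 of 8, 0 of 7, 0 of 1 and 0 of 0 tested genes were called with limma and 9 libraries, with 5 erythroid genes and 0 others at an unadjusted p under 0.05, and with 7 libraries 4 erythroid genes were called lower.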

Additional observations from a re-analysis of the deposited data

How the results depend on the processing

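The count of 0 called Gimap members in Evi1 HSC against WT HSC was the same under all 26 alternatives, with limma adjusted p from 0.537 to 1 over members and alternatives. Depth is unknown, each WT group holds 2 libraries once the 2 that went against their labels are left out, and a small change of Gimap3 or Gimap7, at a few TPM, could not be resolved. The count of all called genes was 1 with 9 libraries as labelled (Egfp), and 40 without both libraries that went against their labels (11 higher, 29 lower). It was 0 with a pseudocount of 0.1 (846 genes at an unadjusted p under 0.05), 4 with no filter, and 1 to 3 with 1 library left out, the 3 arising without WT HSC replicate 2 or without the library labelled WT HSC replicate 3. With 7 libraries it was 30 with a pseudocount of 0.1, 49 after rescaling and 6 on the compared groups alone, alternatives chosen after seeing the data. It ran from 5 (without WT HSC replicate 1) to 27 (without WT HSC replicate 2) with 1 of the 7 left out, being 20, 12 and 13 without Evi1 HSC replicates 1, 2 and 3, and 6 without WT KL replicate 2 or 3. The causes were not tested.

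No member was called, and the directions of Gimap3, Gimap5, Gimap6 and Gimap8 turned with the libraries used. Gimap1, Gimap4, Gimap7 and Gimap9 stayed above 0 in all 26 alternatives. Over the fits of the 7 libraries or fewer of them, Gimap7 ran from 0.30 to 1.10 and Gimap4 from 0.16 to 0.82. Gimap6 was at 2.13 with 9 libraries, and with 7 at −0.048 as such, −0.048 on the compared groups alone, −0.048 with a pseudocount of 0.1 and −0.061 after rescaling. With 1 of 9 libraries left out it ran from −0.048 (without the library labelled WT HSC replicate 3) to 3.22. With 1 more of the 7 left out it was 0.053, −0.073 and −0.12 without Evi1 HSC replicates 1, 2 and 3, −0.035 and −0.062 without WT HSC replicates 1 and 2, and −0.048 without either WT KL library. Gimap5 was at 1.46 with 9 libraries and at −0.11, −0.11, −0.11 and −0.12 in the same 4 fits, and ran from −0.11 to 2.35 with 1 of 9 left out. With 1 more of the 7 left out it was −0.14, −0.12 and −0.068 without Evi1 HSC replicates 1, 2 and 3, 0.081 and −0.30 without WT HSC replicates 1 and 2, and −0.11 without either WT KL library. In such fits Gimap3 was at −0.019 and −0.021 without Evi1 HSC replicate 2 and WT HSC replicate 1, and Gimap8 at −0.028 and −0.14 without Evi1 HSC replicate 1 and WT HSC replicate 1. The median difference of WT HSC minus WT KL, described without a test, was 1.46 with 9 libraries and 4.06 with 7. It was 4.20 and 3.86 without WT HSC replicates 1 and 2, and 4.02 and 4.04 without WT KL replicates 2 and 3.

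The labels state no pairing, and whether the replicate numbers pair the samples could not be decided from these values. Same-numbered Evi1 HSC and WT HSC libraries had correlations of their deviations from group means of −0.03, −0.06 and −0.10 with 9 libraries. For same-numbered WT HSC and WT KL libraries, whose group means include those that went against their labels, they were 0.62, −0.64 and 0.70. With 7 libraries only replicate 2 remained as a same-numbered WT HSC and WT KL pair, at −0.06, with 2 libraries per WT group. With a replicate block, 1 gene was called with 9 libraries and 0 with 7 (1471 at an unadjusted p under 0.05), where Gimap6 was at −0.099 and Gimap5 at −0.043, and 0 members were called in either fit.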
